A study of Drosophila melanogaster with 2 samples.

Results

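The X chromosome peaks of cato are the 471 members of the authors' optimal list of binding regions on the genome build dm6 whose chromosome is X, out of 2746 regions in all. The other 2275 lie on the autosomal arms 2L, 2R, 3L and 3R and on chromosome 4, and are the comparison throughout. On the older build dm3 the same kind of list holds 458 X peaks of 2655. The list was thresholded on the irreproducible discovery rate (IDR), which keeps regions that rank alike in the replicates, so every peak in it was selected for its ranks in the replicates. Within the list, X and autosomal peaks were separated by position alone.

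The study has 1 condition. Chromatin came from whole embryos of 0 to 16 h, with males and females pooled, and the description states an anti-GFP antibody, while another label field gives cato as the antibody. The flies were a transgenic line in which GFP is fused to the C-terminus of cato. There were 2 biological replicates, numbered 1 and 3 by the submitters. The labels name a possible control experiment, which was not analysed here, nor were untagged embryos, and a whole embryo mixes every cell type, so the cells in which a peak arose are not known. Read depth is unknown. The deposited signal value of a peak is on the scale of the authors' peak caller and is used only to rank and describe peaks within a list.

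Cato (cousin of atonal), an atonal-family transcription factor with a basic helix-loop-helix domain, is known for its expression in developing sense organs. Factors of this class bind E-boxes, the sequence CANNTG, as dimers. Fly males carry a single X and females a pair, and in males a complex of MSL proteins and the roX RNAs binds the X and raises its transcription. Chromatin from mixed-sex embryos therefore holds fewer X copies than autosome copies; what that does to the signal of X peaks was not tested.

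Sequence at the summits shows what the strong X peaks look like and which of them hold an E-box. The 7 windows below span the summit and 50 bp to each side, on the plus strand of dm6, from the RefSeq copy of the assembly. Capitals mark each CANNTG; in the Atf3 window the first of them, with its flanking bases, also matches the achaete-scute-type E-box. The first 3 are the strongest X peaks and the next 2 are strong promoter peaks with more than 1 E-box. The last 2 lie in the neural gene elav's promoter and beside the dosage compensation RNA roX2.

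Ugalt promoter, chrX:2703835-2703935: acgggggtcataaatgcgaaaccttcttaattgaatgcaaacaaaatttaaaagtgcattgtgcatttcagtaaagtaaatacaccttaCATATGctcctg

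ph-p promoter, chrX:2137276-2137376: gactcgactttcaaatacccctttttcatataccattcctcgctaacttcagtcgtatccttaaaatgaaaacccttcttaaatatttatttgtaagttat

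CG32772 intron, chrX:4910314-4910414: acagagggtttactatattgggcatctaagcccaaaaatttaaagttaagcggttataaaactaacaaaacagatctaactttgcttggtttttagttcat

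Atf3 promoter, chrX:1275464-1275564: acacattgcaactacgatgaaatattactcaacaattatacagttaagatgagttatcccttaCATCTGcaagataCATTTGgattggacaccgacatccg

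CBP promoter, chrX:7337020-7337120: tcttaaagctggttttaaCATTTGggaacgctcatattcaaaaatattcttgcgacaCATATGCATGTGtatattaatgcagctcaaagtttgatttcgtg

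elav promoter, chrX:523434-523534: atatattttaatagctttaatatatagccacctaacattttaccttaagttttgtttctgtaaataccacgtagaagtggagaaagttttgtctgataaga

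roX2 end, chrX:11580465-11580565: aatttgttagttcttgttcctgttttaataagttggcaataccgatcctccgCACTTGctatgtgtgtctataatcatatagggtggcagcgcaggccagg

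The Ugalt window holds a single E-box near its right edge, and the ph-p, CG32772 and elav windows hold none. Of the 20 strongest X peaks, 6 had an E-box in this window. Over all X summits the share was 37.2%, and over all windows of that length on X it was 39.9%. The latter were not matched to the summits in base composition.

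The X carried about as many peaks as its size provides for. It held 17.2% of the peaks, 17.6% of the length of the 6 chromosomes compared, 16.6% of their annotated start sites and 15.7% of their protein-coding genes. There were 20.01 peaks per Mb on X (exact 95% Poisson interval 18.2 to 21.9), 22.3 on 2L, 18.9 on 2R, 21.8 on 3L and 20.3 on 3R, so X lay inside the range of the large arms. Chromosome 4 held 6 peaks, or 4.45 per Mb. The ratio of X to all autosomes was 0.970 (95% interval 0.877 to 1.07; exact binomial test, two-sided, adjusted p = 0.564 over 6 tests). Divided instead by the span between the first and last peak of each chromosome, which leaves out the chromosome ends without peaks, the ratio was 0.868 (exact binomial test, adjusted p = 0.00748). That span covers 94.9% of X but 75.5% of 2R and 81.0% of 3L. The p-values here and below treat each peak or gene as independent, although neighbours are not and all come from the same pair of libraries.

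Strength did not set X apart either. X peaks had a median signal value of 105.2 (range 69.1 to 899.6) and autosomal peaks 106.6. Above the list's median lay 229 of the 471 X peaks (48.6%) and 1144 of the 2275 autosomal ones (50.3%; Fisher's exact test, two-sided, adjusted p = 0.564). In replicate 1 the median signal at the X peaks was 35.4 against 34.5 at the autosomal peaks, and in replicate 3 it was 55.2 against 56.5. The ratio of X to autosomes was thus 1.03 in one replicate and 0.978 in the other, on either side of 1. Signal at promoter peaks of X had a median of 108.5, at introns 104.6 and at intergenic sites 95.05.

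Presence in both libraries is part of how the list was made and is given as a description. Replicate 1 has a peak at 470 of the 471 and replicate 3 at all 471. The exception is a weak promoter peak of His3.3B, a replacement histone gene, at chrX:9155062-9155465, with a signal of 72.6. Among the 2746 strongest peaks of a replicate, 401 X peaks were recovered in replicate 1 and 425 in replicate 3, and 366 (77.7%) in both. The autosomal share in both, under the same selection, was 75.3% (Fisher's exact test, adjusted p = 0.486 over 7 tests added after the data had been seen). Peaks of the list can overlap each other: 32 X peaks (6.79%) overlapped another, against 7.82% of the autosomal peaks, and merging them leaves 455 X regions.

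**Figure D1:**
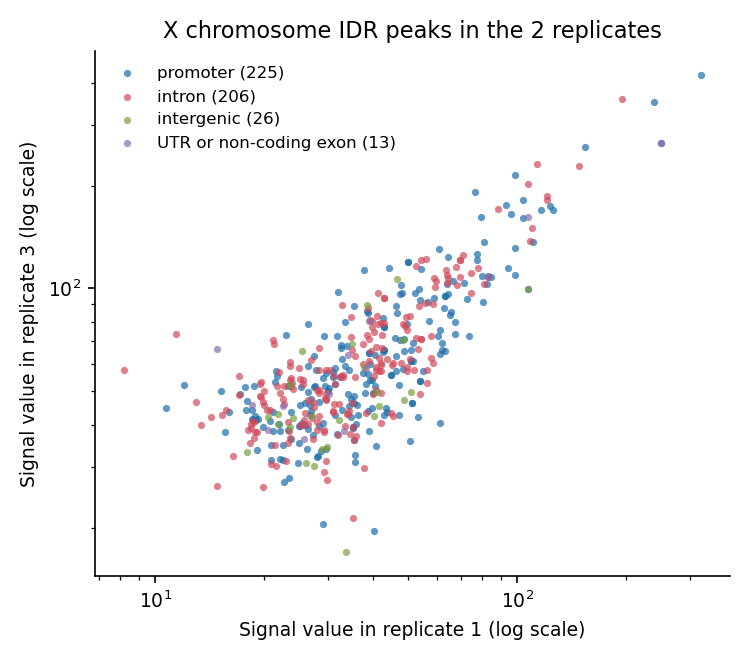
Signal value of each X peak of the IDR list in replicate 1 (horizontal, log scale) and replicate 3 (vertical, log scale), coloured by location class, for the 470 peaks found in both. The 4 classes overlap over most of the range, and the peak of Ugalt is the highest in both replicates.

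Further down the lists, where peaks are weak, the X share was lower in replicate 1 and in the pool, and changed less in replicate 3. In the list of replicate 1, X held 15.8% of ranks 1 to 500 and 18.6% of ranks 501 to 1000, and 13.7% of ranks 5001 to 10000. In replicate 3 the shares were 17.0%, 15.4% and 15.6%. The pooled list, which the authors made from both libraries, fell furthest, from 17.0% in ranks 1 to 500 to 12% in ranks 3001 to 5000. At ranks 20001 to 30000 the shares were 15.7% in replicate 1, 16.1% in replicate 3 and 15.1% in the pool, so none fell steadily. The strongest 2746 peaks of the pooled list are 15.4% on X, against 17.2% in the IDR list, and whether the IDR list was drawn from it is not known. The replicates therefore did not share a trend among the strongest 1000 peaks.

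**Figure D2:**
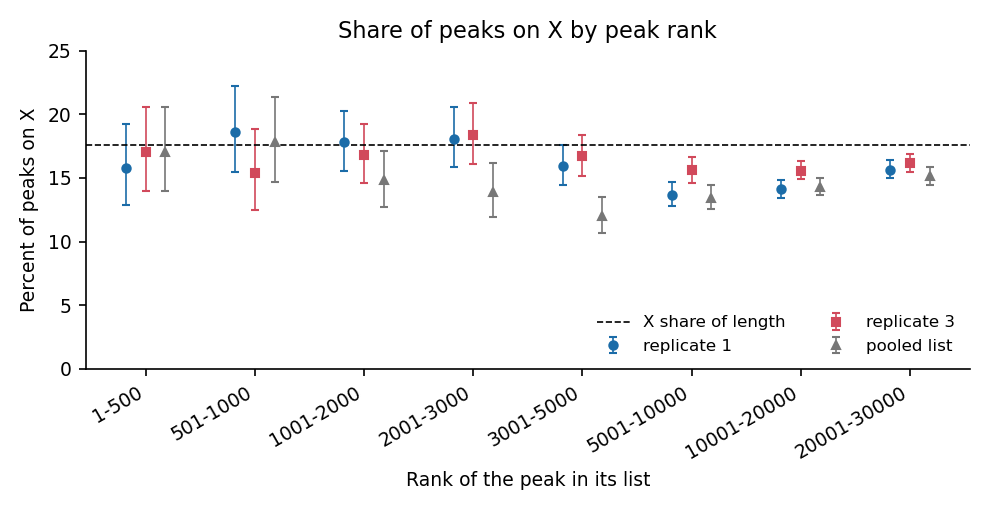
Percent of peaks on X by rank in the lists of replicate 1, replicate 3 and the pool, with Wilson 95% intervals for counting error. The dashed line is the X share of chromosome length, 17.6%, and the pooled list lies lowest of the 3 between ranks 1001 and 10000.

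Where X differed was in the location of its peaks. Introns held 206 X summits, or 43.7% (Wilson 95% interval 39.3 to 48.2), against 28.7% of autosomal summits, an odds ratio of 1.94 (Fisher's exact test, two-sided, adjusted p = 2.28e-09 over 6 tests). The intron share was 25.7% on 2L, 31.1% on 2R, 27.2% on 3L and 30.9% on 3R, so X was above each arm. Intergenic sequence held 26 X summits, or 5.52% (3.79 to 7.97), against 13.6% (odds ratio 0.372; Fisher's exact test, adjusted p = 5.32e-07). Here the arms spread widely, with 16.8% on 2L, 18.9% on 3L, 8.56% on 2R and 9.52% on 3R. Promoters, defined as the 500 bp to either side of any annotated start, held 226 X summits, or 48.0% (43.5 to 52.5), against 55.9% (odds ratio 0.729, adjusted p = 0.00384 by Fisher's exact test). The promoter share was 55.6% on 2L, 58.7% on 2R, 52.0% on 3L and 57.8% on 3R, so 3L lay inside the interval of X. UTRs and non-coding exons held 13 X summits (2.76%) and coding exons none, against 3 of the autosomal summits in coding exons.

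**Figure D3:**
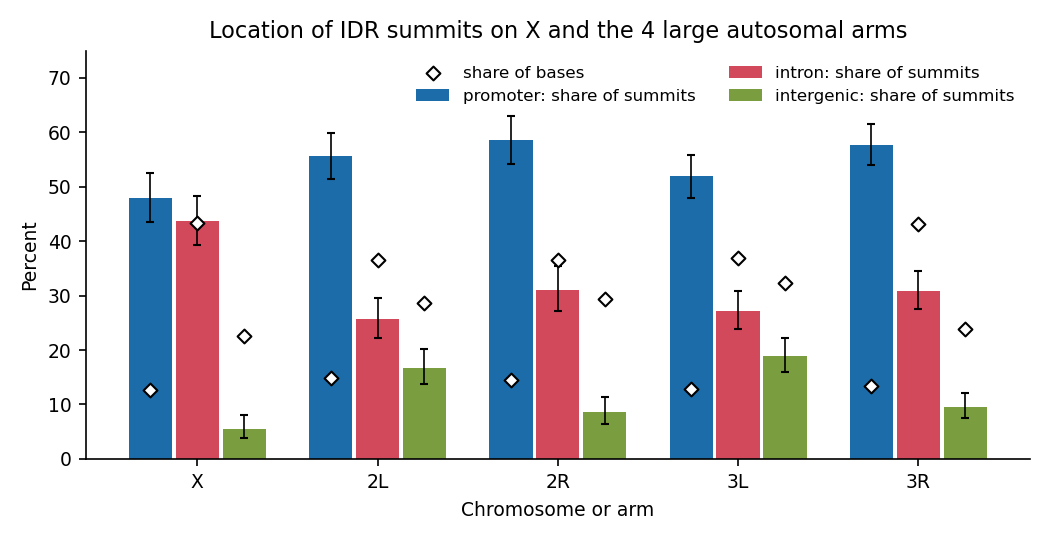
Share of IDR summits in promoters, introns and intergenic sequence on X and the 4 large autosomal arms (bars, percent, with Wilson 95% intervals for counting error) and the share of the chromosome's bases in each class (diamonds). The intron bar of X, 43.7%, stands above those of the arms, beside a share of bases of 43.3%.

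Both replicates gave this difference when taken alone. In the 2746 strongest peaks of replicate 1, introns held 43.1% of X summits and 28.4% of autosomal ones; in replicate 3 these were 45.6% and 30.2%. For intergenic summits the shares were 6.804% against 14.2% in replicate 1 and 4.39% against 12.7% in replicate 3. Promoter shares were 48.0% against 55.4% and 46.9% against 55.1%.

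The chromosomes differ in how much intron they have, and that changes how the intron result reads. Introns make up 43.3% of the bases of X and 38.6% of the autosomes. Per Mb of intron, X had 20.2 summits (95% interval 17.5 to 23.1) and the autosomes 15.3, a ratio of 1.32 (1.12 to 1.55; exact binomial test, adjusted p = 0.00109 over 3 classes, added after the data had been seen). Counted only within the span of the peaks, however, the figures were 20.8 on X and 18.4 on the autosomes. That ratio was 1.13 with an interval of 0.960 to 1.32 (exact binomial test, adjusted p = 0.205), and 2R, at 21.3, was then above X. The denser intron binding per base thus did not pass the test once the sequence at peak-free chromosome ends was left out. The share of summits in introns does not use that sequence. Within the span, however, introns made up 44.4% of the bases of X and 37.8% of those of the autosomes.

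Intergenic binding was sparser on X by either count. There were 4.90 summits per Mb of intergenic sequence on X and 9.92 on the autosomes, a ratio of 0.494 (0.317 to 0.737; exact binomial test, adjusted p = 0.000563). Within the span the ratio was 0.416 (exact binomial test, adjusted p = 5.17e-06). Over whole chromosomes the arm nearest to X was 2R, with 5.51 per Mb, against 8.08 on 3R, 12.8 on 3L and 13.1 on 2L. Within the span X was at 5.64 and the nearest arms were 3R at 9.68 and 2R at 10.5, with 2L at 13.1 and 3L at 20.4. Keeping 1 peak per cluster of summits within 10 kb, the ratio was 0.745 (0.461 to 1.15; exact binomial test, adjusted p = 0.297), with 23 of 26 X summits and 181 of 309 autosomal ones then counted. Promoters had 76.1 summits per Mb on X and 83.8 on the autosomes (ratio 0.909, 0.786 to 1.05; exact binomial test, adjusted p = 0.196).

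**Figure D4:**
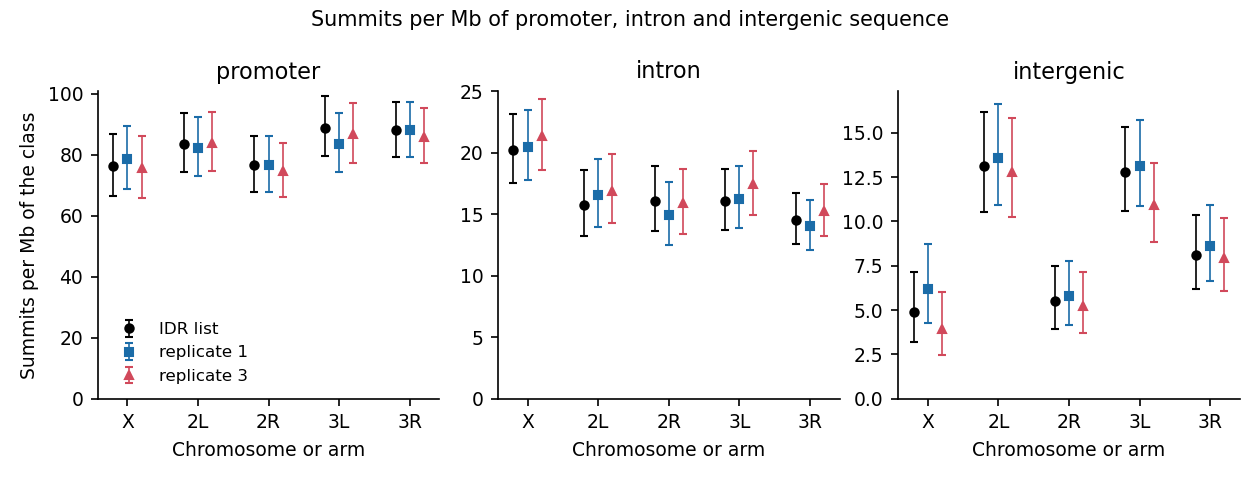
Summits per Mb of promoter, intron and intergenic sequence for X and the 4 large arms, in the IDR list and in the 2746 strongest peaks of each replicate, with exact 95% Poisson intervals for counting error. X has the highest intron value (20.2) and the lowest intergenic value (4.90) of the IDR list, with 2R close to it for intergenic sequence.

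Of the 206 intronic X summits, 200 lay within a protein-coding gene. They fell in 135 host genes, of which 103 held a single one, and the 11 hosts with 4 or more held 61 of the 200. The gene CG1677, which spans 124.7 kb, held 11, Raf 8 and Hr4 7. Tlk, CHES-1-like and kirre held 5 each. The span of CG1677 contains other genes, and its intronic summits included ones given by nearest start to brk, CBP, unc-119, Dok and Atg5. Counted once per intronic summit, the longest host gene had a median length of 30.6 kb on X and 26.4 kb on the autosomes. Hosts of several summits thus count several times, and summits outside protein-coding genes enter at 0 kb. The median distance of these summits to the nearest coding start was 2456 and 2821 bp. First introns held 64.1% of the intronic X summits and 73.3% of the autosomal ones (Fisher's exact test, unadjusted p = 0.0134, adjusted p = 0.094 over the 7 added tests), which does not pass the threshold of 0.05. First introns make up 44.5% of intron bases on X and 41.1% on the autosomes.

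The strongest X peaks were led by Ugalt, a UDP-galactose transporter gene. Its peak at chrX:2703726-2704052 had a signal of 899.6, the 3rd highest of the whole list, with the summit 33 bp upstream of the start. It had a signal of 321.7 in replicate 1 and 421.8 in replicate 3, and ranked 3rd and 4th. The next, at chrX:2137211-2137511, lay inside ph-p, which encodes a Polycomb group protein, and 471 bp upstream of an internal start of that gene. Its signal was 704.6, with 238.6 in replicate 1 and 351.9 in replicate 3. An intronic peak of CG32772 at chrX:4910222-4910517 had 649.8, with 194.9 and 359.2. All 3 stayed within the 20 strongest peaks of each replicate.

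A pair of strong peaks lay beside the non-coding gene lncRNA:CR44619, one in a non-coding exon at chrX:12750900-12751612 (599.4) and one at chrX:12752220-12752487 (482.7). Both were given to CG4004, the nearest protein-coding start, more than 5 kb away. Of the 100 strongest peaks of the list, 15 were on X.

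The remaining strong X peaks lay at genes of several roles. Kinases were represented by the intronic peaks of Tlk (455.8) and Raf (373.4), the latter the kinase between Ras and MEK. Among transcription factors, NFAT had an intronic peak of 408.1, Atf3 a promoter peak of 383.2 and bbx, an HMG-box gene, a promoter peak of 357.8. The neuronal genes elav, an RNA-binding protein used as a neuron marker, and norpA, the phospholipase C of phototransduction, had 342.3 at the promoter and 306.3 in an intron. Metabolic and transport genes were LPCAT (377.8), Gapdh2 (319.2) and MFS10 (315.8). The polarity gene baz had 336.2 in a UTR or non-coding exon. CG3726 (369.3), bves (360.4), a 2nd ph-p peak (360.9) and CBP (306.7) complete the 20. Of these 20 peaks, 11 were at promoters, 7 in introns and 2 in UTR or non-coding exons. The largest gap between replicates in rank was at Gapdh2, which was 273rd in replicate 1 and 78th in replicate 3.

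Target genes were assigned by distance, each peak going to the nearest start of a protein-coding gene. Of all 13945 protein-coding genes, 2119 (15.2%) had at least 1 peak. On X this was 351 of 2196 (16%) and on the autosomes 1768 of 11749 (15%), which did not differ beyond the test (Fisher's exact test, adjusted p = 0.406). Per arm the share was 15.2% on 2L, 13.0% on 2R, 16.8% on 3L and 15.4% on 3R. Restricted to genes with a summit within 500 bp of one of their own starts, X was lower, with 258 genes (11.7%) against 1668 (14.2%; Fisher's exact test, adjusted p = 0.00323). The direction therefore depended on how peaks were assigned.

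Among the bound X genes 12 (3.42%) had 4 or more peaks and 6 (1.71%) 5 or more, against 45 (2.55%) and 16 (0.905%) of the bound autosomal genes, which was not tested. Raf led with 8, at signals of 79.5 to 373.4. A pair of those 8 overlap each other and share the same replicate peak. CHES-1-like, a forkhead factor, and Hr4, a nuclear receptor of the ecdysone response, had 7 each, with best signals of 254.7 and 230.5. Tlk had 6, Ptpmeg2, a tyrosine phosphatase, and CG43736 5 each. The other 6 were ph-p, NFAT, CBP, dnc, unc-119 and Mnt, with 4 each. Their best signals ran from 95.8 at Mnt, a partner of Max, to 704.6 at ph-p.

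Along the chromosome, the 23 full bins of 1 Mb held between 2 and 39 peaks, with a median of 20. The first 10 Mb held 254 peaks (53.9%) in 42.5% of the length and 42.9% of the coding genes. The stretch from 10 to 20 Mb held 191, and the rest, towards the centromere, 26. The share of genes with a peak fell in the same order, from 18.3% to 14.7% and 11.3%, which was not tested. Introns held 44.5% and 45.5% of the summits in the first and second stretches but 6 of 26 (23.1%) in the last, where promoters held 65.4%.

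Summits within 10 kb of each other form 308 clusters on X, of which 213 are single peaks and 8 hold 5 or more. The largest holds 11 peaks at chrX:6844070-6868014, near CG14435, Tmf, CG4558, CG14434 and CG43736, with a best signal of 204.4. The next holds 9 at chrX:2293678-2304255, at CG2865 and Raf. Another summit lay within 10 kb of 54.8% of X summits and 60.2% of autosomal ones (Fisher's exact test, adjusted p = 0.107).

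Dosage compensation genes gave mixed values. At roX2, an RNA of the MSL complex, the list has a peak at chrX:11580313-11580716, with its summit 83 bp past the gene's end and a signal of 110.4, close to the median of X peaks. It was 43.5 in replicate 1 (rank 862) and 44.7 in replicate 3 (rank 1976). By location it is a promoter peak of nod, whose start is 257 bp away, so which gene it belongs to cannot be told apart. At roX1 the list has no peak, and the nearest summit is 5967 bp away; the replicate lists have weak peaks there, at best rank 7897 in replicate 1 and 6101 in replicate 3. Of the 7 protein-coding genes of sex determination and dosage compensation, 2 had a peak, beside 16% of all X genes. These were Sxl, the switch gene of female development, with an intronic peak of 105.6, and upd1, with an intergenic peak of 83.2 given to it from 14.0 kb away.

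The genes ac, sc, l(1)sc and ase of the achaete-scute complex had no peak in the list. The nearest summit to ac was 123047 bp away, to sc 96497 bp, to l(1)sc 83177 bp and to ase 30818 bp. Replicate 3 has weak peaks at sc (rank 12384) and ase (rank 9877), and replicate 1 has none within 1 kb of any of these 4 genes. With the other sense organ genes of the list, 4 of 10 had a peak, beside 16% of all X genes. These were sn, an actin-bundling protein of bristles, at 141.7, ct, a homeodomain selector of external sense organs, with 2 peaks of which the higher is 134.3, bi at 90.6 and peb at 83.3. All 4 lay between ranks 779 and 2049 of the list, none among its strongest. The remaining sense organ genes, tilB and unc, had no peak.

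Other lists of X-linked genes, written with earlier results of these data known and given no test, are described against the 16% of all X genes. Ribosomal protein genes stood highest, with 10 of 14 bound (71.4%), each with its best peak at a promoter. Their best signals were 168.8 at RpS10b, 165.7 at RpL22 and 134.9 at RpS5a. The autosomal ribosomal protein genes were at 33 of 78 (42.3%). Oxidative phosphorylation subunit genes were at 4 of 12 (33.3%), against 8 of 72 on the autosomes (11.1%), with ND-24 (140.7) and ND-ASHI (136.4) highest. Broadly expressed genes were at 5 of 10, led by Gapdh2, Zw (176.6) and Act5C (164.6).

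Developmental lists had lower shares than the ribosomal protein genes, though above 16% apart from the Notch pathway list. Some bound genes count in several lists. These include ovo (early patterning, epidermis and pigment), sn (sense organ, epidermis and pigment) and upd1 (signalling, sex determination and dosage compensation). Early patterning genes were at 4 of 12, with brk, a repressor of Dpp targets, at 219.2, ovo at 141.6 and sog, a Dpp antagonist, at 137.4. Signalling genes were at 5 of 16, led by Raf, sgg (231.7), the GSK3 kinase of the Wingless pathway, and egh (147.9). Neuron genes were at 5 of 17, led by elav, norpA and dnc (248.6), a cAMP phosphodiesterase of learning. Muscle and adhesion genes were at 2 of 7, which were kirre (199.4), needed for myoblast fusion, and if (82.9). Cell cycle genes were at 1 of 5, which was fzr (94.3), and epidermis and pigment genes at 3 of 10.

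Some lists had no bound member. These were the 8 yolk and chorion genes, the 14 odorant and gustatory receptor genes and the 4 Notch pathway genes. Among autosomal receptor genes 3 of 105 (2.86%) had a peak. An intron of Notch does hold a peak, at chrX:3162298-3162701 with a signal of 143.9, but the nearest coding start is that of CG18508. Nrg, of the neuron list, also counts as unbound, although its intron holds a peak of 82.3 that was given to PIP82. Counts in all lists follow the nearest coding start only.

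**Figure D5:**
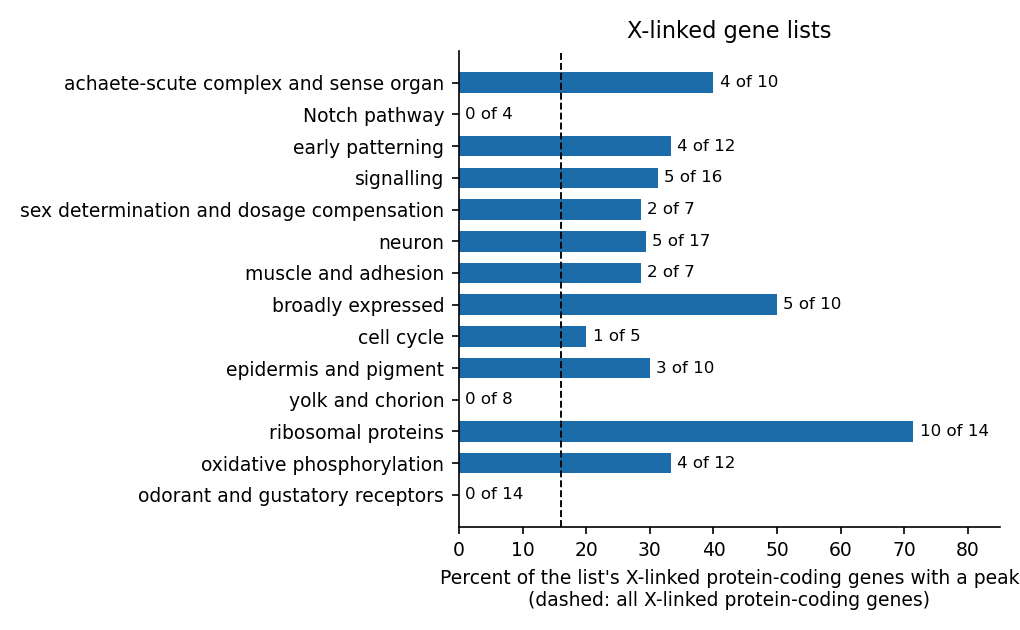
Percent of the X-linked protein-coding genes of each list that were given at least 1 peak, with the counts beside the bars and the share over all X genes (16%) as a dashed line. Ribosomal protein genes are highest at 10 of 14, and the Notch pathway, yolk and chorion, and receptor lists are at 0.

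The sequence around the summits was compared for the 10 classes of CANNTG and 8 other motifs, on both strands of the same window around the summit. The others were the atonal-type and achaete-scute-type E-boxes, each of which also counts as a CANNTG class, the sites of DREF, BEAF, GAGA factor, Zelda and Grainyhead, and a CA repeat. Of the 18, 0% differed between X and autosomal summits at an adjusted p under 0.05 (Fisher's exact test with Benjamini-Hochberg adjustment). At an unadjusted p under 0.05, 1 did: CATATG was in 29 X windows (6.16%) and in 3.69% of the autosomal ones (Fisher's exact test, p = 0.0209, adjusted p = 0.377). The same E-box is in 3.06% of all windows of that length on X and 2.69% on the autosomes.

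Counted together, E-boxes of any class were more frequent at X summits. They were in 175 of 471 windows (37.2%) against 31.7% (Fisher's exact test, adjusted p = 0.0469 over 4 tests added after the data had been seen). Both lie below the share in all windows of that length, 39.9% on X and 39.2% on the autosomes. Those windows have a median G and C content of 42.6% on X and on the autosomes, against 32.7% and 30.7% at the summits. They were not matched to the summits in this respect. At promoters, E-boxes were in 89 of 226 windows (39.4%) against 28.9% (adjusted p = 0.00864 by Fisher's exact test). The arms were at 32.5% (2L), 30.6% (2R), 25.7% (3L) and 27.1% (3R). Introns were at 35.0% against 34.0%, and intergenic summits, only 26 on X, at 34.6% against 37.5%. Whether the difference varied between the classes was not tested. Promoter summits of replicate 1 alone gave 41.6% on X and 30.4% on the autosomes (p = 0.00100) and those of replicate 3 gave 38.0% and 30.3% (p = 0.0286), by Fisher's exact test without adjustment. The windows for comparison were centred 100 bp upstream of the outermost start of each protein-coding gene, 1 window per gene. They hold an E-box in 38.1% of cases on X and 36.4% on the autosomes. X promoter summits were thus near the level of these X windows, and autosomal ones below theirs. Promoter summits count near any annotated start, internal and non-coding ones included, so these windows do not match them.

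The median G and C content of the window was 32.7% on X and 30.7% on the autosomes, a difference of 1.98 percentage points that fell to 0.990, or 1 base of the window, in either replicate alone. By class it was 33.7% against 30.7% in introns and 31.7% against 30.7% at promoters, with no test. The whole chromosomes are at 42.5% and 42.1%. DREF sites are in 5.10% of the windows upstream of the outermost starts of X genes and 2.16% of the autosomal ones. They were in 6 X summit windows (1.27%) and in 1.63% of the autosomal ones. BEAF sites, in 9.88% and 5.69% of the same upstream windows, were at 3.61% of X summits and 3.91% of autosomal ones.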

How the data were processed

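Peak lists of cato-eGFP chromatin immunoprecipitation sequencing were analysed from 2 biological replicates. Per the deposited file descriptions, the authors made 1 list of peaks with background for each replicate and 1 for the pool, as input to IDR, and then the thresholded list. All are on the builds dm6 and dm3. Signal values are the authors' deposited ones, in their peak caller's units. Which aligner and peak caller were used, and how deeply the libraries were read, is not given in the sources used here. Hence intervals cover the counting of peaks or bases only. The pooled list's strongest peaks were an alternative only. The members and the gene lists were chosen with earlier results of these data known.

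Each summit was classed by the first that applied of promoter (within 500 bp of any start), coding exon, other exon (UTR or non-coding), intron and intergenic sequence, with Ensembl release 115 (BDGP 6.54). Transposon entries were left out. X was compared with the autosomes by two-sided Fisher's exact or exact binomial tests, adjusted by Benjamini-Hochberg over 6 planned comparisons; tests added later were adjusted among themselves. Replicate lists were cut to 2746 peaks. Only the motif comparison, Fisher's exact test with its adjustment, was tried on simulated motif presence, and the other steps were not simulated. The atonal-type E-box searched is any of AACAGGTGG, AACAGGTGT, AACATGTGG, AACATGTGT, ATCAGGTGG, ATCAGGTGT, ATCATGTGG and ATCATGTGT. The achaete-scute-type is GCAGNTGG or GCAGNTGT. The DREF site is TATCGATA, that of BEAF is CGATAG, that of GAGA factor is GAGAGA and the CA repeat is CACACACA. Zelda's site is CAGGTAG and that of Grainyhead is AACCGGTT. A match in a window is a description only. Named genes are those of the 20 strongest X peaks, those with 4 or more peaks and up to 3 bound members of each list. Also named are roX1, roX2 and the achaete-scute genes. The genes bi, peb, tilB, unc, upd1, CG18508, Nrg, PIP82 and His3.3B were added after their values were seen. So were genes at the largest clusters and hosts of intronic peaks. Python 3.11.15, numpy 2.4.6, scipy 1.17.1, pandas 2.3.3 and matplotlib 3.10.9 were used.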

Additional observations from a re-analysis of the deposited data

How the results depend on the processing

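The intron and intergenic shares kept their direction and their side of the threshold in each of 8 alternatives. With the pooled list, X held 15.4% of the strongest 2746 peaks. Its density ratio was then 0.851 (exact binomial test, adjusted p = 0.00409), its promoter share differed by -4.36 percentage points (Fisher's exact test, adjusted p = 0.15) and its G and C median by 0. The density ratio ran from 0.988 to 1.005 with either replicate left out, and was 1.01 both with 1 peak per 10 kb cluster and per coding start site, on the other side of 1, and 0.868 within the peak span. The bound gene share of X minus that of the autosomes was -0.503 percentage points with the pooled list, 1.74 with 1 peak per cluster (Fisher's exact test, adjusted p = 0.0332), -2.45 within 500 bp of a start and -0.168 over gene bodies. The share above the median signal differed by -2.28 to 0.125 points with a replicate left out, 4.2 with the pooled list and 1.501 outside promoters. The intron density ratio was 1.13 within the span, also with 1 peak per cluster, where the intergenic ratio was 0.628. With 1 peak per cluster alone the intergenic ratio was 0.745. The cause of these changes was not tested, and fewer peaks remain with 1 per cluster (1736, of which 308 on X). No paired analysis was possible because there is 1 condition.

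Depth is unknown and the control named in the labels was not analysed here, so peak absence cannot be given a limit and no call separates cato from antibody background.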
